A study of Mus musculus with 99 samples.

Results

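The Hoxb cluster genes are the 10 homeobox genes Hoxb1, Hoxb2, Hoxb3, Hoxb4, Hoxb5, Hoxb6, Hoxb7, Hoxb8, Hoxb9 and Hoxb13, taken by name from the 55341 gene names of the RNA count table, together with every ChIP-seq peak over the cluster on chromosome 11. All 10 names were found in each of the 16 RNA libraries. The Parental cells were mouse embryonic stem cells (mESCs) with the genotype ROSA26::creERT2 RING1A-/-; RING1B fl/fl, so every cell of this line and its derivatives lacked RING1A before any treatment. OHT (4-hydroxytamoxifen, 0.5 µM for 72 h) activated the Cre recombinase and deleted RING1B, and the −OHT samples received the vehicle ethanol. By their titles, some MTF2 and JARID2 ChIP-seq samples received OHT for 48 h instead. RING1B WT and RING1B I53S were Parental cells that stably expressed FLAG- and HA-tagged RING1B, either wild type or carrying I53S, a mutation in the RING domain that removes ubiquitin ligase activity, so that after OHT the tagged protein was the sole RING1 paralogue left. Derivatives of these lines without MTF2 (MTF2 KO) were profiled by ChIP-seq only. Eed fl/fl mESCs, in which OHT deletes the PRC2 subunit EED, were profiled by RNA-seq only, and the study lists 2 clones of this line without saying which library came from which clone. Each RNA group held 2 libraries, and nothing states that these came from separate cultures, so p-values measure the spread between these libraries only.

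Hox genes encode transcription factors that give cells along the head-to-tail axis their regional identity. They lie in clusters whose order on the chromosome mirrors the order of their expression domains, with Hoxb1 at the head end and Hoxb13 at the tail end, and in mESCs whole clusters are held silent by Polycomb. Polycomb repressive complex 1 (PRC1) places ubiquitin on histone H2A (H2AK119ub1) through RING1A or RING1B, either in canonical complexes with PCGF2 and CBX7 or in variant complexes with RYBP and subunits such as PCGF6. PRC2 places H3K27me3 through a core that holds SUZ12 and EED, joined either by MTF2 and EPOP (PRC2.1) or by JARID2 and AEBP2 (PRC2.2).

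In mm10 the 10 genes ran on the + strand of chromosome 11 from Hoxb13 to Hoxb1. Hoxb13 (chr11:96194316-96197447) stood apart, its start lying 171.4 kb from that of Hoxb1. Hoxb9 (chr11:96271457-96276595), Hoxb8 (chr11:96281905-96285315), Hoxb7 (chr11:96286623-96290162), Hoxb6 (chr11:96292476-96301569) and Hoxb5 (chr11:96303336-96306121) followed in close order. Hoxb4 (chr11:96318267-96321638), Hoxb3 (chr11:96323326-96347930), Hoxb2 (chr11:96350525-96354012) and Hoxb1 (chr11:96365752-96368256) completed the cluster. Antisense and overlapping genes covered 52.9% of the exon length of Hoxb3, 27.3% of Hoxb2 and 3.59% of Hoxb5, and the reads were counted without strand, so the counts of these 3 genes are uncertain. The other 7 genes shared no exon base with another gene.

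The 5 stretches printed here show the DNA over which the peaks below were called, each 300 bases long and printed 5′ to 3′ on the + strand of GRCm38.p6, with every CG dinucleotide in capitals because Polycomb in mESCs is found over CG-rich DNA. The first 3 are the RefSeq promoters (250 bases before to 50 after the start) of the members that the promoter table held, Hoxb8 (chr11:96281655-96281954), Hoxb4 (chr11:96318017-96318316) and Hoxb1 (chr11:96365508-96365807). The last 2 are the centres of the RING1B I53S peaks within Hoxb6 (chr11:96299323-96299622) and Hoxb2 (chr11:96353222-96353521), the 2 sites in the bodies of members where a RING1B peak was still called in RING1B I53S +OHT.
Hoxb8: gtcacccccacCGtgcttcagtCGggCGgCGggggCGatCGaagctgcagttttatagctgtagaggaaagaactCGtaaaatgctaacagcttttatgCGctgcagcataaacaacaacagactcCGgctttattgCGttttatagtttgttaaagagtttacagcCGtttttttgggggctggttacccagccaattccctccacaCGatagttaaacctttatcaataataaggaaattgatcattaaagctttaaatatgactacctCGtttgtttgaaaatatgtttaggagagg
Hoxb4: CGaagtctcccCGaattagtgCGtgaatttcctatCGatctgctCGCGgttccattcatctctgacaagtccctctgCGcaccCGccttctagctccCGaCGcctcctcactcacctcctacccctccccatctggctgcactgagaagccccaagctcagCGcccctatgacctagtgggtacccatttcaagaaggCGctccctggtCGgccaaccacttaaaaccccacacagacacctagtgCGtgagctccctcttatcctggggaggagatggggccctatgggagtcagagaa
Hoxb1: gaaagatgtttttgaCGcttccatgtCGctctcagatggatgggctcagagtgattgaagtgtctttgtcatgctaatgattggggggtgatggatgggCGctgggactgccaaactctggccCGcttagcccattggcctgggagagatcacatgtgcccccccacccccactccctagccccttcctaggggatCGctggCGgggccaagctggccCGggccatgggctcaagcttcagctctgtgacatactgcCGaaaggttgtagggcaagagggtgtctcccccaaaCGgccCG
Hoxb6 peak: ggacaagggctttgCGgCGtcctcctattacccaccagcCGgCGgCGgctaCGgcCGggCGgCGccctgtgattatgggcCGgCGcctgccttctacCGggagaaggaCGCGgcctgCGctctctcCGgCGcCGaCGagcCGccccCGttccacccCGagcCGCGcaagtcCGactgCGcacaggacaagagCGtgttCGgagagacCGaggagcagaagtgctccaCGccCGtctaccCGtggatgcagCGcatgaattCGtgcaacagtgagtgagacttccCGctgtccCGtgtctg
Hoxb2 peak: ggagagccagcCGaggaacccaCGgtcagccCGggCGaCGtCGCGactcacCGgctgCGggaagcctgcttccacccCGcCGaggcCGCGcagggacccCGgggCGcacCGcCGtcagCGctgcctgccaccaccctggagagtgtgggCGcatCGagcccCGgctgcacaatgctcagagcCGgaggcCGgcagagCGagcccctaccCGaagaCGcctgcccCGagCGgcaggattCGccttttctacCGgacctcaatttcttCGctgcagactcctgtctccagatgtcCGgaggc

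The 3 promoters held 13, 14 and 10 CG dinucleotides for Hoxb8, Hoxb4 and Hoxb1, against a median of 7 over the 32851 RefSeq promoters. The Hoxb6 stretch held 36, more than 93.8% of promoters and more than 99.7% of the 613 bins of 300 bases that tile the cluster window. The Hoxb2 stretch held 32, more than 90.5% of promoters and 99.2% of bins. The Hoxb2 stretch lay within a coding exon, and the Hoxb6 stretch ran from a coding exon into the intron after it. The E-box CACGTG, which reads the same on both strands and is bound by the MGA and MAX partners of PCGF6, was in none of the 5 stretches, and 7.15% of all RefSeq promoters held it.

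Total counts ran from 8140106 to 12743460 in the 12 libraries of the 3 RING1B lines and from 6957248 to 9443814 in the 4 Eed fl/fl libraries. The level of Eed, in counts scaled to library size (CPM), fell from 173 and 255 without OHT to 43.7 and 67.1 with OHT in Eed fl/fl cells, in the direction of the labels. Rnf2, which encodes RING1B, stood at 198 and 257 CPM in Parental −OHT and 144 and 167 CPM in Parental +OHT, counted over the whole gene and with the tagged copy added in the rescue lines, so the RNA is a weak check of the deletion. The RING1B ChIP-seq lists held 5073 peaks in Parental −OHT and 690 in Parental +OHT. The 8 markers of pluripotent mESCs summed to between 3260 and 4200 CPM in Parental −OHT, 1140 and 1220 CPM in Parental +OHT, and 1350 and 1400 CPM in RING1B I53S +OHT.

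Without OHT the Hoxb cluster was close to silent. The 10 genes together held 26 and 23 counts in the 2 Parental −OHT libraries, or 2.12 and 2.84 CPM. Hoxb13, the tail-end member known from prostate and tailbud, and Hoxb9, which patterns the thoracic skeleton, made up most of these counts. The 5 members at 0 counts in both libraries were Hoxb8, Hoxb5, Hoxb3, Hoxb2 and Hoxb1, which allows up to 0.147 CPM for each (3 counts over the 2 libraries, a limit for counting error only). RING1B WT −OHT held 2.78 and 2.30 CPM over the 10 genes and RING1B I53S −OHT held 3.63 and 1.63 CPM.

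With OHT the summed level of the 10 genes was 64.3 and 59.0 CPM in Parental cells, 35.2 and 47.6 CPM in RING1B I53S cells, and 7.25 and 14.8 CPM in RING1B WT cells. The 2 libraries of each line with OHT lay above both of its libraries without OHT. Both RING1B I53S +OHT libraries lay between those of RING1B WT +OHT and those of Parental +OHT. In these bulk samples a change in the share of cells that express a gene and a change in RNA per cell cannot be told apart.

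**Figure D1:**
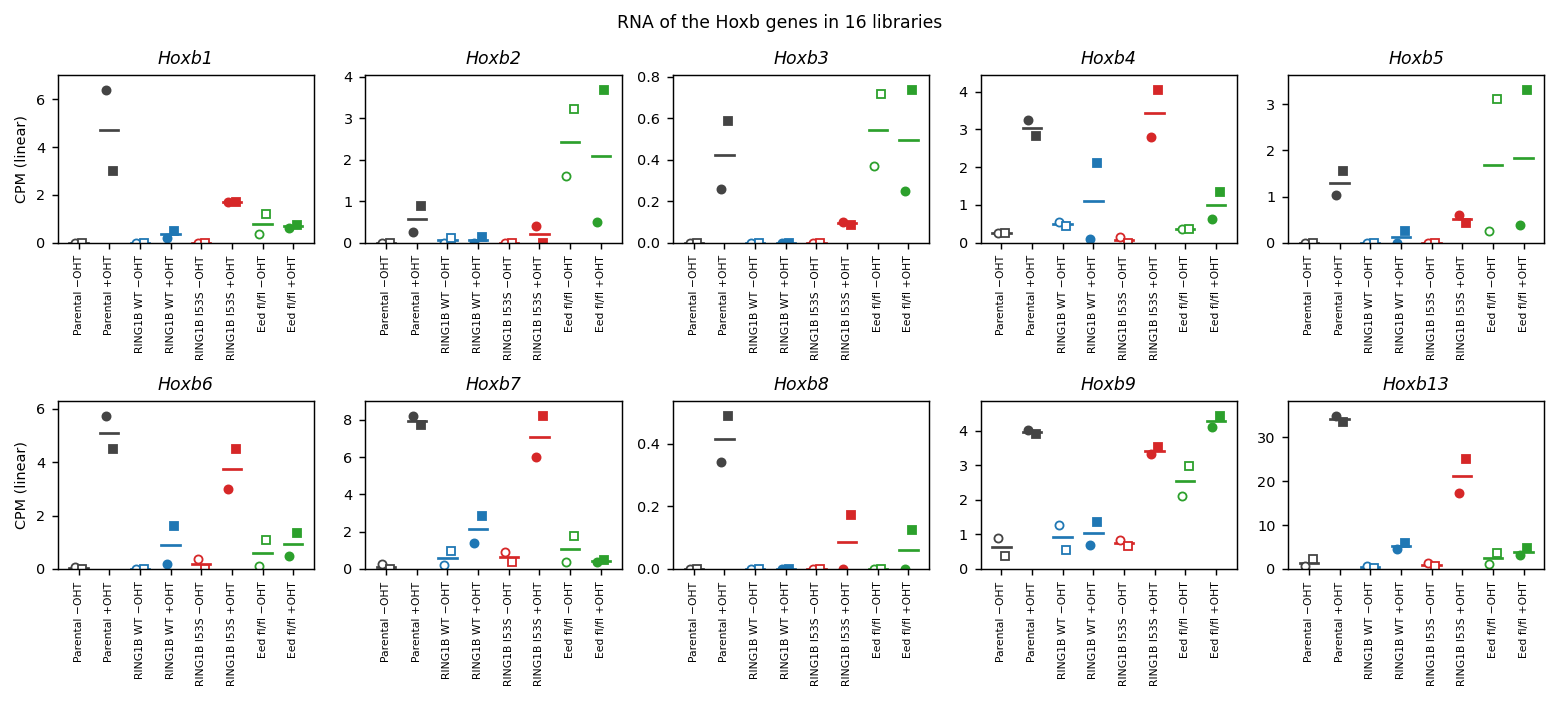
CPM of each Hoxb gene (1 panel per gene, linear axis from 0) in the 16 RNA libraries by line, with circles for replicate 1, squares for replicate 2, open symbols for −OHT, filled symbols for +OHT and a line at the mean of 2 libraries. Hoxb13 reached 34.2 CPM in Parental +OHT and 21.1 CPM in RING1B I53S +OHT against 5.30 CPM in RING1B WT +OHT.

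Per kilobase of exon, a scale that allows for gene length, Hoxb13 stood highest in Parental +OHT at 15.5 ± 0.419 CPM per kb (SD, n = 2). Hoxb7 followed at 5.15 ± 0.228, then Hoxb6 at 2.6 ± 0.446, Hoxb1 at 2.03 ± 1.03, Hoxb9 at 1.54 ± 0.0314 and Hoxb4 at 1.18 ± 0.115 CPM per kb. Hoxb5 at 0.464 ± 0.136, Hoxb2 at 0.163 ± 0.126, Hoxb8 at 0.157 ± 0.0391 and Hoxb3 at 0.0989 ± 0.0547 CPM per kb were lowest. In this order the ranges of neighbouring genes overlapped for Hoxb6 and Hoxb1, for Hoxb1 and Hoxb9, for Hoxb2 and Hoxb8, and for Hoxb8 and Hoxb3. The places of Hoxb3, Hoxb2 and Hoxb5 are uncertain, since the full exon length was used and part of it overlaps other genes. The level did not follow the order on the chromosome, since both end members, Hoxb13 and Hoxb1, stood above genes between them. In RING1B I53S +OHT the leading genes were again Hoxb13 at 9.57 ± 2.47, Hoxb7 at 4.60 ± 0.990 and Hoxb6 at 1.91 ± 0.529 CPM per kb, whereas Hoxb4 (1.34 ± 0.341) and Hoxb9 (1.33 ± 0.0605) then stood above Hoxb1 (0.738 ± 0.00515).

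Deletion of RING1B in Parental cells was compared with vehicle to find which members depend on PRC1. Of the 10 members, 7 passed the filter on low counts and all 7 were higher with OHT by edgeR's quasi-likelihood test (a call required an FDR, the p adjusted after Benjamini and Hochberg, under 0.05 together with 1.5 or more on the log2 scale), against 15.1% of the 18154 tested genes called higher and 1.83% called lower. These 7 passed the filter mostly through their +OHT libraries, so their number is no support in itself. The median log2 fold change of the 7 was 5.67, which shares this selection, and that of all tested genes 0.0269. Leaving out each of the 12 libraries in turn left all 7 called.

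Among the tail-end members, Hoxb13 had 8 and 18 counts in Parental −OHT and 408 and 344 in Parental +OHT. The libraries of both conditions were far apart, with means of 1.44 ± 1.11 and 34.2 ± 0.925 CPM (SD, n = 2), and the log2 fold change was 4.67 ± 0.44 (SE) with an edgeR FDR of 2.52e-07. Hoxb9 had 11 and 3 counts without OHT and 47 and 40 with it, a smaller rise of 2.55 ± 0.57 on the log2 scale (FDR 0.00182, edgeR). Hoxb8, used to immortalise myeloid progenitors, was at 0 in both −OHT libraries and at 4 and 5 counts with OHT, and did not pass the filter. Its level with OHT was 2.78 times a floor of 3 counts over the −OHT group. Here and below, such a ratio to the floor leaves out the counting error of the +OHT counts.

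Of the central members, Hoxb7, a marker of the ureteric bud, had 3 and 0 counts without OHT and 96 and 79 with it. This was a ratio of 54.1 with a 95% counting interval of 18.2 to 265 and an edgeR FDR of 9.33e-06. Its fitted log2 fold change of 5.67 was 9.32 without Parental −OHT replicate 1, which leaves 0 counts on the −OHT side. Hoxb6, a gene of the lateral plate and limb, had 1 and 0 counts without OHT and 67 and 46 with it. Its ratio of 105 had a wide counting interval that began at 18.4, and its FDR by edgeR was 0.000157. Hoxb5, expressed in vagal neural crest, went from 0 in both libraries to 12 and 16 counts, 8.65 times the floor (FDR 0.00364, edgeR). Hoxb4, known for expanding blood stem cells, had 3 and 2 counts without OHT and 38 and 29 with it, and its log2 fold change was 3.57 ± 0.89 (FDR 0.004, edgeR). For all 4 genes the libraries of both conditions did not overlap.

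At the head end, Hoxb1, the gene of the fourth rhombomere of the hindbrain, was at 0 in both Parental −OHT libraries and at 75 and 31 counts with OHT. Its level with OHT was 32.8 times the floor (FDR 4.87e-05, edgeR). Its 2 +OHT libraries differed more from each other than those of any other called member, at 6.405 and 3.02 CPM. Hoxb2, which patterns the hindbrain and its facial motor neurons, went from 0 to 3 and 9 counts, 3.71 times the floor. Hoxb3, its neighbour with a related hindbrain role, went from 0 to 3 and 6 counts, 2.78 times the floor. Neither these 2 genes nor Hoxb8 passed the filter, and without a filter their edgeR FDR over 37779 genes was 0.081, 0.208 and 0.211 in that order.

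**Figure D2:**
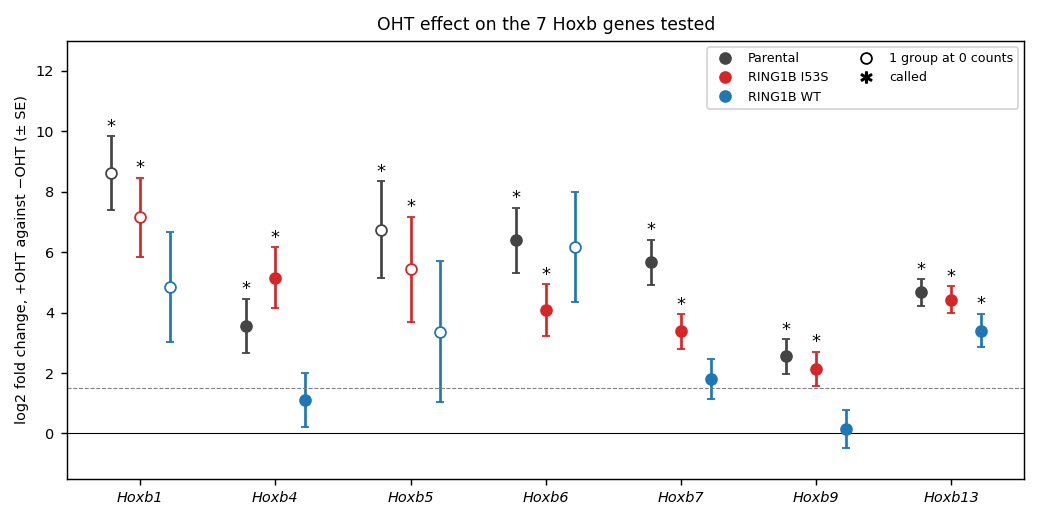
Log2 fold change with OHT against without (edgeR, vertical axis) for the 7 tested Hoxb genes in Parental, RING1B I53S and RING1B WT cells, with bars of 1 SE, open symbols where 1 of the groups was at 0 counts, stars where the change was called and a dashed line at 1.5. All 7 were called in Parental and RING1B I53S cells, and Hoxb13 alone in RING1B WT cells.

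RING1B I53S cells asked whether the mutant protein, present without its ligase activity, holds the genes down. With OHT all 7 tested members were again higher, against 12.8% of tested genes called higher and 1.04% lower. They are the 7 that passed the filter mostly through +OHT libraries, so this count is no support in itself either. Hoxb13 had 17 and 6 counts without OHT and 172 and 290 with it, a log2 fold change of 4.43 ± 0.45 (FDR 1.08e-06, edgeR). Hoxb7 had 12 and 4 counts without OHT and 60 and 95 with it, a rise of 3.38 ± 0.58. Hoxb6 had 5 and 0 counts without OHT and 30 and 52 with it, a rise of 4.09 ± 0.85, which was 8.24 without RING1B I53S −OHT replicate 1, where the −OHT side is left at 0 counts. The groups did not overlap for any of these 3 genes.

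Hoxb4 had 2 and 0 counts in RING1B I53S −OHT and 28 and 47 in RING1B I53S +OHT, a ratio of 40.6 with a counting interval of 10.9 to 341. Its fitted log2 fold change was 5.16, and 8.12 without RING1B I53S −OHT replicate 1, where the −OHT side is again at 0. Hoxb1 went from 0 to 17 and 20 counts, 13.4 times the floor. Hoxb9 had 11 and 7 counts without OHT and 33 and 41 with it, a rise of 2.14 ± 0.56 on the log2 scale (FDR 0.00691, edgeR). Hoxb5 went from 0 to 6 and 5 counts, 3.97 times the floor (FDR 0.028, edgeR). The calls of these last 2 genes were the least firm. The FDR of Hoxb9 rose to 0.0707 without RING1B I53S −OHT replicate 2, and that of Hoxb5 ranged from 0.0533 to 0.142 over the 5 libraries whose removal ended its call (both +OHT Parental libraries, both RING1B I53S −OHT libraries and RING1B I53S +OHT replicate 1) and was 0.0804 by DESeq2. Hoxb8 (0 and 2 counts), Hoxb3 (1 and 1) and Hoxb2 (4 and 0) stayed at or near 0 with OHT.

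In RING1B WT cells 1 of the 7 tested members was higher with OHT, against 1.34% of tested genes called higher. Hoxb13 had 7 and 2 counts without OHT and 46 and 48 with it, a log2 fold change of 3.41 ± 0.56 (FDR 0.00304, edgeR), and without RING1B WT −OHT replicate 2 the FDR was 0.0725. Hoxb9 did not separate, with 12 and 5 counts without OHT and 7 and 11 with it (0.15 ± 0.63, FDR 0.943, edgeR).

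The RING1B WT +OHT libraries differed from each other for the central members. Hoxb6 was at 0 in both −OHT libraries and at 2 and 13 counts with OHT, 5.14 times the floor (FDR 0.0822, edgeR). It was called by DESeq2 (FDR 0.0389), and its fitted log2 fold change of 6.18 was 7.08 without RING1B WT +OHT replicate 1. Hoxb4 had 5 and 4 counts without OHT and 1 and 17 with it. Hoxb7 had 2 and 9 counts without OHT and 14 and 23 with it (FDR 0.174, edgeR). In each of these 3 genes replicate 2 was the higher of the +OHT pair, and for Hoxb4 the 2 conditions overlapped. Hoxb1 went from 0 to 2 and 4 counts, Hoxb5 from 0 to 0 and 2, Hoxb2 stood at 0 and 1 in both conditions, and Hoxb8 and Hoxb3 were at 0 in all 4 libraries.

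Set side by side with OHT, RING1B WT lay below Parental for 6 of 7 tested members, against 7.62% of tested genes called lower. The filter let the 7 in mostly through Parental and RING1B I53S +OHT libraries. It thus favoured this direction, and the count is no support in itself. On the log2 scale the differences were −2.69 ± 0.38 for Hoxb13, −1.95 ± 0.55 for Hoxb9, −1.91 ± 0.52 for Hoxb7 and −2.54 ± 0.72 for Hoxb6. Hoxb5 at −3.37 ± 1.1 and Hoxb1 at −3.76 ± 0.74 were also called, and Hoxb4 at −1.51 ± 0.74 was not (FDR 0.165, edgeR). The call of Hoxb5 (FDR 0.0423, edgeR) was lost whichever 1 of the 12 libraries was left out. The count rested on single libraries. It was 1 without Parental +OHT replicate 1, 2 without Parental +OHT replicate 2 and 1 when RING1B WT +OHT replicate 1 was left out, and in each of these 3 fits Hoxb13 was called. The difference for Hoxb6 was −1.65 without RING1B WT +OHT replicate 1 (FDR 0.205, edgeR) and −4.59 without RING1B WT +OHT replicate 2, where that for Hoxb5 was −6.77 and no longer called (FDR 0.0715, edgeR).

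RING1B I53S lay above RING1B WT with OHT for 3 of 7 tested members, against 6.02% of tested genes called higher, a count that the filter favoured in the same way. These were Hoxb13 (2.00 ± 0.37, FDR 0.00177), Hoxb9 (1.74 ± 0.56, FDR 0.0438) and Hoxb7 (1.75 ± 0.52, FDR 0.0297) by edgeR. Hoxb6 (2.1 ± 0.73, FDR 0.0629), Hoxb1 (2.30 ± 0.78, FDR 0.0593), Hoxb4 (1.69 ± 0.74, FDR 0.134) and Hoxb5 (2.07 ± 1.22, FDR 0.282) were not called. The count was 0 without RING1B WT +OHT replicate 1, where the FDR of Hoxb13 was 0.0502, and 1 without RING1B I53S +OHT replicate 2 or either Parental +OHT library. It was 4 without RING1B WT +OHT replicate 2, 4 with the replicate number as a block (Hoxb6, FDR 0.0499) and 6 with no filter on low counts.

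RING1B I53S and Parental with OHT were not told apart for any tested member by edgeR or by DESeq2, against 0.16% of tested genes called. Hoxb1, at −1.46 ± 0.59, was the 1 member with an unadjusted p under 0.05 (FDR 0.875, edgeR). The other 6 differences ran between −1.31 ± 0.84 (Hoxb5) and 0.18 ± 0.65 (Hoxb4) on the log2 scale. These standard errors leave room for a change of more than 1 log2 unit in several members, so equal levels are not shown. This comparison and the 2 before it share their +OHT libraries, and so do the OHT effects within each line.

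Whether the OHT effect itself differed between lines was tested as an interaction. No member was called in any of the 3 tests by edgeR. The counts at an unadjusted p under 0.05 were 1 member for RING1B I53S minus Parental, 2 for RING1B WT minus Parental and 2 for RING1B I53S minus RING1B WT, and DESeq2 called 0, 1 and 0. Over all tested genes 0%, 1.54% and 0.347% were called. Hoxb7 had the lowest edgeR FDR of the members, with an OHT effect that was lower in RING1B WT than in Parental cells by 3.87 ± 1.11 on the log2 scale (FDR 0.0763). A gene at 0 in both −OHT libraries of a line, such as Hoxb5 or Hoxb1, carries no usable interaction. Without OHT the 3 lines differed in no tested member by edgeR or DESeq2, with 1, 1 and 0 members at an unadjusted p under 0.05 for RING1B I53S against Parental, RING1B WT against Parental and RING1B I53S against RING1B WT, where 0.154%, 0.0606% and 0.0441% of tested genes were called.

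Deletion of Eed addressed the part of PRC2. No tested Hoxb gene was called with OHT in Eed fl/fl cells, with 4 of 10 members tested, 0 called by edgeR, DESeq2 or limma, 0 at an unadjusted p under 0.05, and 0.00795% of 25170 tested genes called in either direction. Hoxb13 had 10 and 30 counts without OHT and 25 and 38 with it (0.68 ± 0.56 on the log2 scale). Hoxb9 had 17 and 25 counts without OHT and 33 and 36 with it (0.74 ± 0.46). These 2 tail-end genes were higher in mean with OHT by less than the test could separate. With the replicate number as a block, Hoxb13 stood at 0.76 ± 0.43 and Hoxb9 at 0.75 ± 0.41 (FDR 0.291 and 0.268, edgeR), also not called.

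In Eed fl/fl cells the replicates of Hoxb5 and Hoxb2 stood far apart. Hoxb5 had 2 and 26 counts without OHT and 3 and 27 with it, and Hoxb2 had 13 and 27 counts without OHT and 4 and 30 with it. The replicate 2 libraries of both conditions were the high ones. The summed level of the 10 genes was 6.79 and 18.05 CPM without OHT and 10.5 and 20.9 CPM with OHT, with replicate 2 the higher in both, and the sum of 6 primitive endoderm markers ran from 15.7 to 30 CPM without OHT against 2.61 to 2.97 CPM in Parental −OHT. The part of these markers in the Hoxb levels of this line was not tested. Hoxb3 (3 and 6 counts without OHT, 2 and 6 with it) and Hoxb1 (3 and 10, 5 and 6) were detected in every Eed fl/fl library, and Hoxb8 in 1 of 4.

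The other 3 central members did not pass the filter in Eed fl/fl cells and were not tested. Hoxb7 had 3 and 15 counts without OHT and 3 and 4 with it, a ratio of 0.396 with a 95% counting interval of 0.14 to 0.993. Hoxb4 had 3 and 3 counts without OHT and 5 and 11 with it, a ratio of 2.71 (1.01 to 8.47). Hoxb6 had 1 and 9 counts without OHT and 4 and 11 with it, a ratio of 1.53 (0.642 to 3.8). The libraries of both conditions did not overlap for Hoxb4 and overlapped for Hoxb7 and Hoxb6, and these intervals leave out the spread between libraries.

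The peaks came from 70 ChIP-seq lists of 12 antibodies, 65 groups in all, with 1 list per antibody and condition other than MTF2 and JARID2 in RING1B WT +OHT and RING1B I53S +OHT at 72 h, which had 2. A single list allows no test between conditions, so peaks are given as descriptions of those libraries. Each list holds peaks with a score, −log10 of the MACS2 p, of 10 or more, and scores and peak numbers depend on sequencing depth, which the lists do not give. The cluster window ran from 5 kb before Hoxb13 to 5 kb after Hoxb1 (chr11:96189316-96373256, 183.941 kb), and a promoter was taken as the 2.5 kb upstream and downstream of each annotated start. Neighbouring members often shared 1 broad peak, so they do not count as separate observations.

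In Parental −OHT, 10 members had a promoter peak of RING1B, PCGF2, CBX7, H2AK119ub1, SUZ12, MTF2, EPOP, JARID2, AEBP2 and H3K27me3, and 9 had one of PCGF6 and RYBP, both missing Hoxb13. Peaks covered from 10.8% of the window for PCGF6 to 83.4% for H3K27me3. RING1B covered 43.5%, and its score was highest over Hoxb2 at 299 and lowest over Hoxb13 at 81.3. Of all gene names, 9.33% had a RING1B promoter peak in that list, 12.3% one of H2AK119ub1, 15.3% one of H3K27me3 and 27.9% one of MTF2. Over protein-coding genes alone, to which all 10 members belong, the shares were 17.7%, 22.7%, 26.7% and 50.3% in that order. For the other antibodies the shares of all gene names ran from 2.30% (AEBP2) to 17.4% (JARID2), with 13.8% for PCGF6.

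In RING1B WT +OHT the window held 21 RING1B peaks over 37.7% of its length, and all 10 promoters were covered, against 7.04% of all gene names. The longest (chr11:96294289-96305987, 11699 bp) ran over Hoxb6 and Hoxb5 with a score of 180, and the strongest lay over Hoxb2 (chr11:96349998-96355340, score 298). Another broad peak spanned Hoxb8 and Hoxb7 (chr11:96279366-96287787, 8422 bp, score 200). Hoxb13 lay under a weaker one (chr11:96193570-96196528, score 26.3). In Parental +OHT no RING1B peak touched a member, and 1 peak of 725 bp remained in the window (chr11:96262217-96262941, score 14.6), over Gm53.

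In RING1B I53S +OHT the RING1B list held 3 peaks in the window, over 1.57% of it. One lay over Gm53 (chr11:96263955-96265092, score 10.1). The others were the Hoxb6 site (chr11:96299061-96299885, 825 bp, score 16.4) and the Hoxb2 site (chr11:96352907-96353837, 931 bp, score 28.4), whose central sequences with 36 and 32 CG dinucleotides are printed above. Both lay inside RING1B peaks of RING1B WT +OHT with scores of 180 and 298. For scale, the RING1B peak left in the window of Parental +OHT cells, after deletion of RING1B, scored 14.6, near the score of the Hoxb6 site. Of the bases under RING1B WT +OHT peaks, 2.53% in the window were also under a peak of the RING1B I53S list, against 5.81% over the genome.

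**Figure D3:**
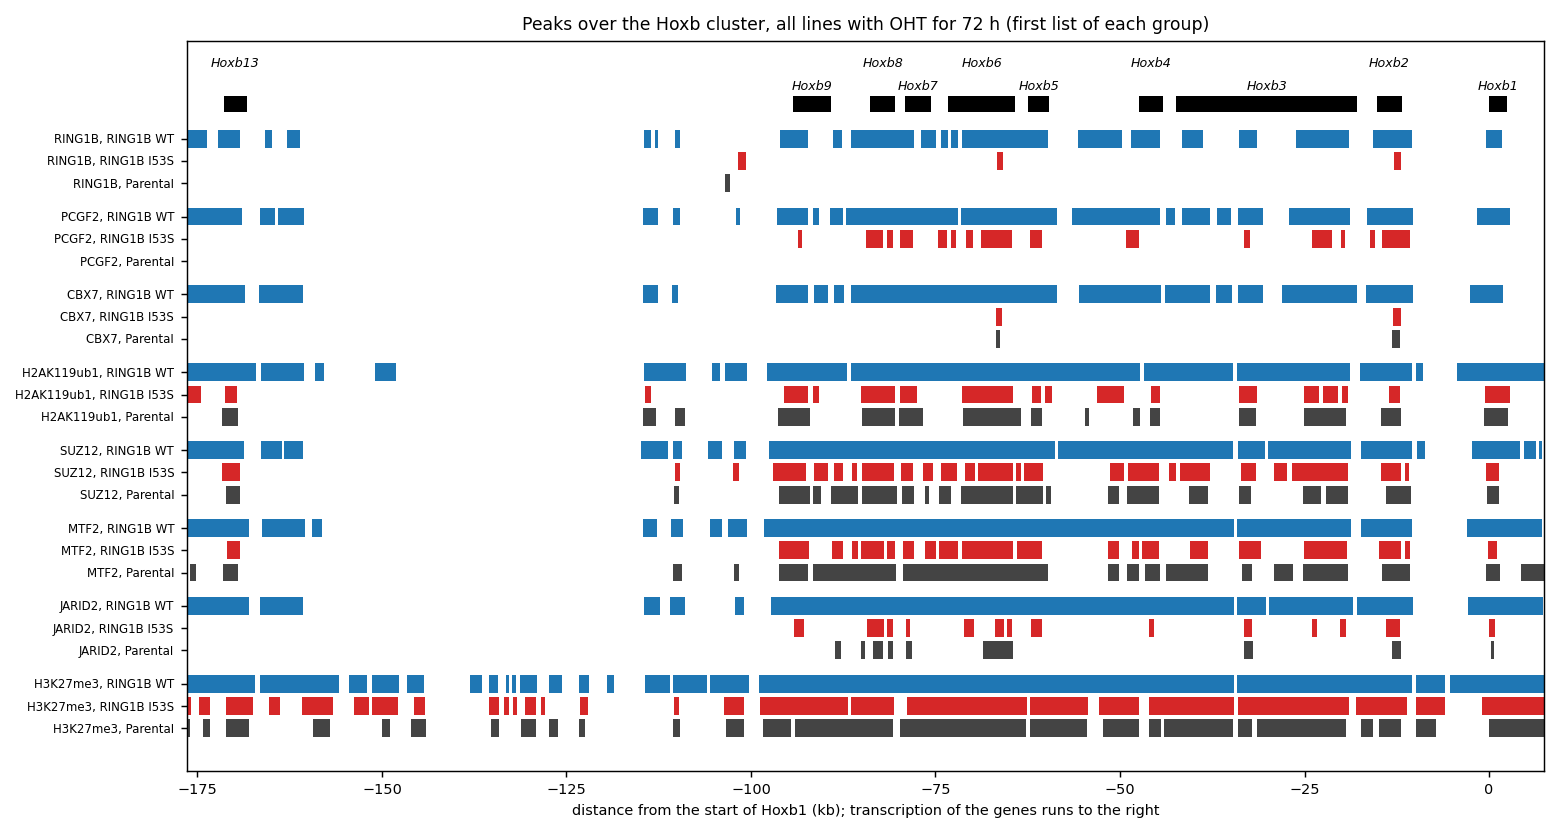
Peaks of 8 antibodies over the Hoxb window in RING1B WT, RING1B I53S and Parental cells with OHT for 72 h (the first list of each), drawn to scale as bars against distance from the Hoxb1 start in kb, with the gene bodies marked. RING1B covered 37.7% of the window in RING1B WT, 1.57% in RING1B I53S and 0.394% in Parental cells.

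The canonical PRC1 subunit PCGF2 was called more widely than RING1B in RING1B I53S +OHT. It covered 50.5% of the window in RING1B WT +OHT, 13.2% in RING1B I53S +OHT and 0 in Parental +OHT, where the whole list held 89 peaks. In RING1B I53S +OHT, 8 of 10 promoters had a PCGF2 peak, all but those of Hoxb13 and Hoxb1, against 1.29% of all gene names. The scores ran from 11.2 at Hoxb9 to 153 at Hoxb2, compared with 131 and 620 in RING1B WT +OHT. Of the bases under RING1B WT +OHT peaks of PCGF2, 26.1% in the window and 11.6% over the genome were also covered in RING1B I53S +OHT.

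CBX7, which binds H3K27me3 within canonical PRC1, had peaks at all 10 promoters in RING1B WT +OHT, against 4.91% of all gene names, and over 52.3% of the window. In RING1B I53S +OHT it was left at the Hoxb6 and Hoxb2 sites only, with scores of 15.7 and 19.5, and in Parental +OHT at the same 2 sites, with 14.3 and 10.3. These 2 lists held 32 and 59 peaks over the genome. The variant subunit PCGF6 covered 24.1% of the window in RING1B WT +OHT, 2.25% in RING1B I53S +OHT and 3.05% in Parental +OHT, with 10, 4 and 5 promoters. Its promoter scores with OHT did not pass 26.6 in RING1B I53S or 18.7 in Parental cells, and with peaks of score 20 or more these counts were 2 and 0. RYBP had a promoter peak at 9 members in Parental −OHT, 6 in RING1B WT +OHT and 4 in RING1B I53S +OHT, none with a score above 23.5. The shares of all gene names with one were 5.86%, 2.33% and 1.55%.

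H2AK119ub1 was called at all 10 promoters in all 4 conditions, against 5.74% of all gene names and 11.2% of protein-coding genes in RING1B I53S +OHT. The window share was 67.7% in Parental −OHT, 68.7% in RING1B WT +OHT, 23.7% in Parental +OHT and 22.5% in RING1B I53S +OHT. Promoter scores ran from 66.6 to 152 in RING1B WT +OHT, 12.7 to 46.1 in Parental +OHT and 15.2 to 32.1 in RING1B I53S +OHT, with no overlap between RING1B WT and the other 2. Of the bases under RING1B WT peaks, 32.8% in the window were also covered in RING1B I53S +OHT and 34.3% in Parental +OHT, against 11.9% and 19.3% over the genome. The spike-in used for histone marks is not carried by peak lists, so these values are no measure of the total mark.

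**Figure D4:**
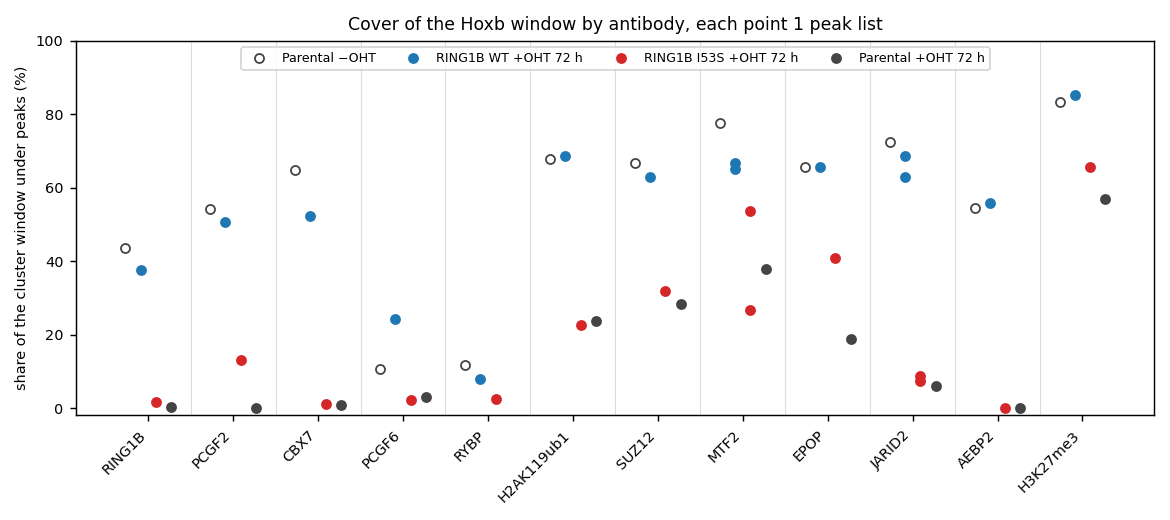
Percent of the Hoxb window (vertical axis, from 0) under peaks of each of 12 antibodies in Parental −OHT and in RING1B WT, RING1B I53S and Parental cells with OHT, 1 point per list. H3K27me3 covered 56.8% or more in each condition, while AEBP2 fell to 0 in RING1B I53S and Parental cells with OHT.

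The PRC2 core and its PRC2.1 partners were still called over the cluster after loss of RING1B or of its activity. SUZ12 had a peak at all 10 promoters in all 4 conditions and covered 62.8% of the window in RING1B WT +OHT, 32.0% in RING1B I53S +OHT and 28.2% in Parental +OHT. Of all gene names 12.5%, 6.64% and 10.9% had a SUZ12 promoter peak in the same order. The score over Hoxb6 was 757 in RING1B WT, 176 in RING1B I53S and 208 in Parental cells with OHT. H3K27me3 also kept a peak at all 10 promoters (against 10.8% of all gene names in RING1B I53S +OHT) and covered 85.2%, 65.6% and 56.8% in that order. Of the H3K27me3 bases of RING1B WT +OHT in the window, 76.2% were covered in RING1B I53S +OHT, against 41.2% over the genome.

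MTF2, which binds unmethylated CG-rich DNA, was called at all 10 promoters in every list. It was also called at 5.92% (first RING1B I53S +OHT list) to 27.9% (Parental −OHT) of all gene names. Its 2 lists of RING1B WT +OHT covered 65.1% and 66.7% of the window and the 2 of RING1B I53S +OHT 26.7% and 53.6%, and Parental +OHT at 37.8% lay between the latter, which held 3091 and 7546 peaks over the genome. The spread between lists of 1 condition was therefore larger than the difference between the RING1B I53S mean and Parental cells. EPOP was called at all 10 promoters and covered 65.7% of the window in RING1B WT, 40.8% in RING1B I53S and 18.7% in Parental cells with OHT. Of all gene names 12.6%, 5.70% and 5.18% had an EPOP promoter peak in the same order. With peaks of score 20 or more, EPOP was left at 3 promoters in Parental +OHT.

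By share of the window under peaks, the PRC2.2 partners fell further. AEBP2 started from low scores, with 62.9 at the Hoxb6 site in RING1B WT +OHT against 757 for SUZ12. The lists end at a score of 10, so cover is not on 1 scale across antibodies. AEBP2 covered 55.9% of the window and all 10 promoters in RING1B WT +OHT, against 2.47% of all gene names. It had no peak in the window in RING1B I53S or Parental cells with OHT, where the lists held 50 and 14 peaks over the genome. JARID2 covered 62.8% and 68.7% in the 2 RING1B WT +OHT lists, 8.66% and 7.26% in the 2 RING1B I53S +OHT lists and 5.99% in Parental +OHT. It was left at 9 and 8 promoters in RING1B I53S +OHT and at 6 in Parental +OHT. The highest JARID2 promoter scores were over Hoxb2 and Hoxb6, at 71.9 and 71.2 in the first RING1B I53S list against 1285 and 1001 in the first RING1B WT list. For MTF2 the Hoxb6 site scored 120 and 383 in the 2 RING1B I53S +OHT lists against 1278 and 1032 in those of RING1B WT.

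**Figure D5:**
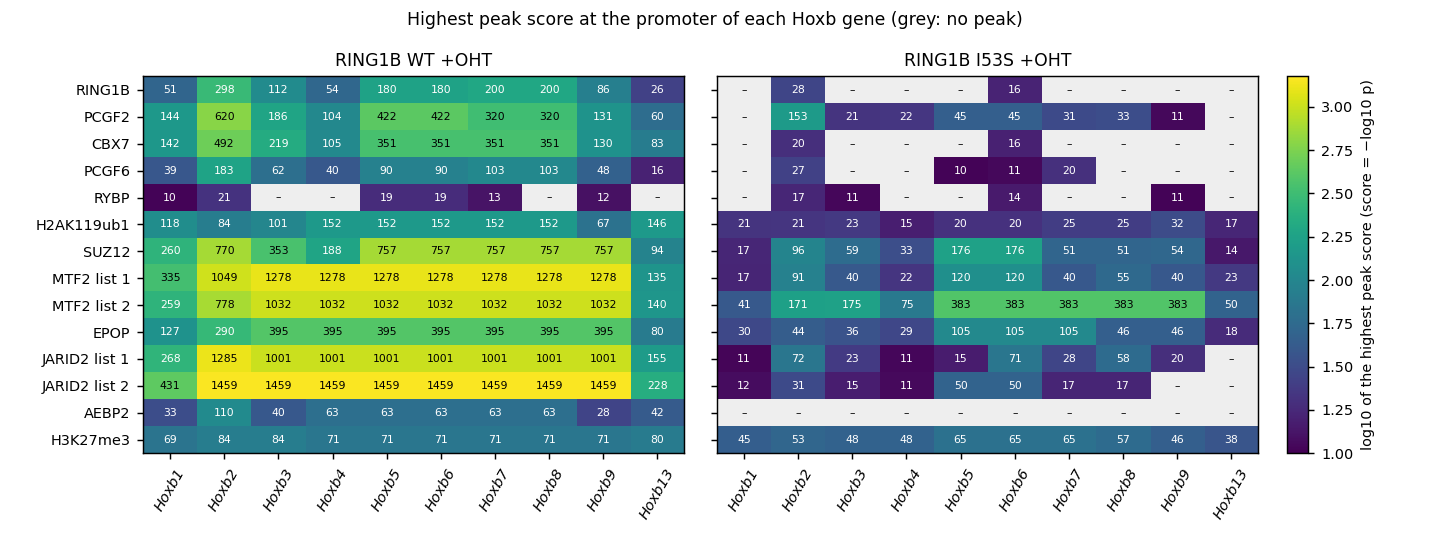
Heat map of the highest peak score (−log10 p, log colour scale) within 2.5 kb of a start of each Hoxb gene (columns from Hoxb1 to Hoxb13) for each antibody in RING1B WT +OHT and RING1B I53S +OHT, with grey cells where no peak was called. Hoxb6 and Hoxb2 kept a peak of every antibody but AEBP2 in RING1B I53S cells, while Hoxb13 lost those of RING1B, PCGF2, CBX7, PCGF6, JARID2 and AEBP2.

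The members differed in how many antibodies were left. In RING1B I53S +OHT, 13 of 14 lists had a promoter peak at Hoxb6 and at Hoxb2, all but AEBP2, 9 at Hoxb9 and 6 at Hoxb13. In Parental +OHT the same 4 genes had a peak in 8, 8, 5 and 5 of 11 lists. The shares along the window were set side by side without a test. SUZ12 covered 79.8% of Hoxb13 and the 5 kb around it in RING1B WT +OHT and 18.4% in RING1B I53S +OHT. From Hoxb9 to Hoxb1 it covered 88.1% and 51.3%, and of the stretch between Hoxb13 and Hoxb9 17.2% and 2.40%. For PCGF2 the shares in RING1B WT and RING1B I53S were 77.7% and 0 around Hoxb13, 71.7% and 22.7% from Hoxb9 to Hoxb1, and 9.67% and 0 in between. PCGF6 in RING1B I53S +OHT covered 3.44% around Hoxb13 and 3.45% from Hoxb9 to Hoxb1.

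The narrow Hoxb6 and Hoxb2 sites were singled out after their values were seen. Each held a peak in all 12 lists of Parental −OHT, all 14 of RING1B WT +OHT and 13 of 14 of RING1B I53S +OHT. In Parental +OHT they held one in 7 and 8 of 11 lists, without RING1B or PCGF2. The PCGF2 score in RING1B I53S +OHT was 45.2 at the Hoxb6 site and 153 at the Hoxb2 site. The RING1B I53S list chose the sites and is not independent of them. Over the 21 RING1B peaks of RING1B WT +OHT in the window, the number of RING1B I53S +OHT lists with a peak ran from 0 to 13 of 14.

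The MTF2 KO lists followed SUZ12 and H3K27me3 without MTF2. In RING1B WT MTF2 KO +OHT, SUZ12 covered 63.1% of the window and all 10 promoters, and 62.8% with MTF2. Its scores were 303 at the Hoxb6 site and 380 at the Hoxb2 site without MTF2, against 757 and 770 with it. In RING1B I53S MTF2 KO +OHT it covered 2.71% and 4 promoters (Hoxb6, Hoxb5, Hoxb3 and Hoxb1), and in Parental MTF2 KO +OHT 5.35% and 7 promoters. None of these scores passed 20.3. Of all gene names 0.820% and 2.35% had a SUZ12 promoter peak in these 2 lists, and 6.61% in RING1B WT MTF2 KO +OHT. Of the SUZ12 bases of RING1B WT MTF2 KO +OHT, 4.29% in the window and 3.27% over the genome were covered in RING1B I53S MTF2 KO +OHT, compared with 50.8% and 30.9% for the lines with MTF2.

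H3K27me3 without MTF2 covered 59.9% of the window and all 10 promoters in RING1B WT MTF2 KO +OHT. It covered 20.3% and 7 promoters in RING1B I53S MTF2 KO +OHT, all but Hoxb13, Hoxb9 and Hoxb4, and 3.21% and 2 promoters (Hoxb8 and Hoxb6) in Parental MTF2 KO +OHT. The shares of all gene names with a promoter peak were 3.72%, 1.46% and 0.307% in the same order of lines. The Parental list held 332 peaks over the genome against 7852 without OHT. The 4 input lists of the MTF2 KO lines had no peak in the window.

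At 48 h of OHT, a time that comes from the sample titles, MTF2 covered 71.4% of the window in RING1B WT, 64.9% in RING1B I53S and 53.8% in Parental cells. JARID2 covered 68.9%, 21.4% and 16.03% in the same order, with 10, 9 and 8 promoters (against 9.75%, 2.12% and 5.64% of all gene names). In RING1B I53S cells JARID2 thus stood at 66.1% without OHT, 21.4% at 48 h and 7.26% to 8.66% at 72 h. Hoxb13 had no JARID2 peak in RING1B I53S or Parental cells at 48 h or at 72 h. Parental cells at 48 h also lacked one at Hoxb4.

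The genes around and upstream of the cluster were set beside it. In Parental +OHT 15.1% of all tested genes were called higher and 1.83% lower. Of 5 counted transcripts of the cluster that are no members, 2 were tested and Hoxb3os, antisense to Hoxb3, was higher in Parental +OHT (0 counts without OHT, 2.02 ± 0.519 CPM with it, SD, n = 2, FDR 0.000514, edgeR) and in RING1B I53S +OHT (FDR 0.00368). Its reads cannot be told from those of Hoxb3 and Hoxb2 where they overlap. Of the 10 nearest genes outside the cluster, 1 was higher in Parental +OHT and none lower, which is no more than the share over all genes. The higher neighbour was Skap1, an adaptor of T cell signalling beside the Hoxb1 end. It stood at 1.74 ± 0.536 CPM without OHT and 11 ± 1.93 with it (2.63 ± 0.41 on the log2 scale, FDR 6.85e-05, edgeR).

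Skap1 was also higher with OHT in RING1B I53S cells (2.88 ± 0.42) and in RING1B WT cells (2.22 ± 0.50, FDR 0.023, edgeR). Of 9 Hox cofactors, proteins that bind DNA with Hox factors, 3 were higher and none lower in Parental +OHT, with a median log2 fold change of 0.807. Meis1 went from 5.83 ± 2.13 to 26.7 ± 1.37 CPM and Meis3 from 1.90 ± 0.419 to 6.05 ± 0.979 CPM. Of 16 upstream regulators, 15 were tested, 12 were higher and 1 lower, with a median of 2.93.

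The 2 regulators with the lowest FDR of that list set retinoic acid levels, to which Hoxb genes respond in the embryo. Aldh1a2, which makes retinoic acid, went from 4.81 ± 0.686 to 37.1 ± 0.970 CPM in Parental cells (FDR 1.93e-06, edgeR). Cyp26a1, which degrades it, went from 0 to 6.80 ± 0.523 CPM (FDR 7.17e-06, edgeR). In RING1B WT cells neither was called, with Aldh1a2 at 5.32 ± 1.78 CPM without OHT and 6.42 ± 0.963 with it.

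Markers of several lineages moved with the Hoxb genes. In Parental +OHT, 6 of 6 tested primitive endoderm markers, 5 of 6 trophoblast, 4 of 5 mesoderm and 3 of 4 fibroblast markers were higher, and 4 of 8 pluripotency markers were lower. Over all tested genes 15.1% were called higher and 1.83% lower. Pdgfra is in both the primitive endoderm and the fibroblast list, so these 2 counts share a gene. Gata3 of the trophoblast went from 0.492 to 52.4 CPM and Gata6 of the primitive endoderm from 0 to 5.28 CPM. Of the 7 fibroblast markers, Col3a1, Dcn and Lum were at 0 in both Parental +OHT libraries, and the 7 together ran from 63 to 63.9 CPM there against 24.3 to 24.9 CPM in RING1B WT +OHT. The summed primitive endoderm level ran from 39.7 to 43.5 CPM in Parental +OHT, 32.2 to 33.9 in RING1B I53S +OHT and 7.15 to 11 in RING1B WT +OHT, the same order of lines as for the summed Hoxb level. Of 6 neural markers 3 were tested, with Nes and Pax6 higher and Tubb3 lower. The part of these lineages in the Hoxb levels was not tested.

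Across the 12 libraries, the genes outside the Hox clusters whose log2 CPM followed the mean of the 7 tested Hoxb genes most closely were Sema6a (Pearson r = 0.992), Cyp26a1 (0.991), Foxf1 (0.990), Gm44210 (0.989) and Helt (0.987). These values describe 12 libraries in 6 groups and share the split between OHT and vehicle. In the other Hox clusters all 7 tested Hoxa genes, 5 of 8 Hoxc and 7 of 7 Hoxd genes were higher in Parental +OHT, against 15.1% of all tested genes. The filter on low counts let in 7 of 11 Hoxa, 8 of 9 Hoxc and 7 of 9 Hoxd genes. It can favour genes that are high with OHT, so these counts are no support in themselves. The share of the window under peaks in RING1B I53S +OHT was 22.5% for H2AK119ub1 at Hoxb against 4.06% at Hoxa, 0 at Hoxc and 6.96% at Hoxd, and 13.2% for PCGF2 against 3.67%, 0.41% and 7.79%. In Parental +OHT it was 23.7% for H2AK119ub1 at Hoxb against 11.8%, 3.91% and 15.7%, and 0 for PCGF2 in all 4 clusters. These are single lists without a test, and of the 12 antibodies only H2AK119ub1 and PCGF2 are given for the other clusters. Their cover in RING1B WT +OHT is not given for those clusters, so the values do not show how much each cluster kept.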

How the data were processed

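RNA-seq (SMART-seq2) and ChIP-seq were made from mESCs. Per the labels and the study's methods, the authors aligned RNA reads with STAR 2.7 and deposited raw featureCounts counts per gene. They aligned ChIP-seq reads with Bowtie 1.2.2, kept unique alignments without duplicates and called peaks with MACS2 2.1.1, and the deposited peak scores are −log10 p-values per peak. The submitters' notes also name DESeq2 1.20 for their own comparisons, which were not used.

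Counts were tested here in R 4.3.3 with edgeR 4.0.16 (TMM, filterByExpr, quasi-likelihood test), with 1 fit of 12 libraries in 6 groups and a separate fit for Eed fl/fl. SE is the log2 fold change over the root of F. DESeq2 1.42.0 and limma 3.58.1 were alternatives, and the fits were tested on simulated counts. Levels (CPM) are counts scaled to the TMM-adjusted library size. Intervals (95%, exact binomial) and the floor of 3 counts cover counting error only. Libraries of 1 group differed from each other by more than sampling noise (chi-square of 5.88 to 22.9 per gene).

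Peaks were read on mm10 with GENCODE M21, 1 shared base counting as overlap, and sequences came from RefSeq on GRCm38.p6, where 3 of the 10 members had a promoter entry and 2289 of 2289 chromosome 11 promoters lay at their stated coordinates. Named genes were the 10 members, the 2 genes of each list with the lowest FDR among those called in Parental cells, and the 5 genes most correlated with the members. The members and lists were chosen with earlier results of these data known. Alternatives were another tool, normalization, filter, block, set of libraries or threshold for counts, and another score, promoter width, overlap or window for peaks.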

Additional observations from a re-analysis of the deposited data

How the results depend on the processing

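Of the counts of members called, 217 values under an alternative stayed within 1.5 times the reported count and 21 moved. Leaving out each library in turn gave 7 to 7 members for the OHT effect in Parental cells, 5 to 7 in RING1B I53S, 0 to 2 in RING1B WT, 1 to 6 for RING1B WT against Parental with OHT, 0 to 4 for RING1B I53S against RING1B WT with OHT, and 0 to 1 for the difference in OHT effect of RING1B WT minus Parental and of RING1B I53S minus RING1B WT. DESeq2 called 2 members for the OHT effect in RING1B WT and 1 for the RING1B WT minus Parental difference. With no filter on low counts these were 2 and 1, and 6 for RING1B I53S against RING1B WT with OHT. With at least 10 counts in every library no member could be tested, so 0 were called for the OHT effect in Parental, RING1B I53S and RING1B WT and for both comparisons with RING1B WT. With the replicate number as a block, 4 members against 3 were called for RING1B I53S against RING1B WT with OHT, and the block changed no other count. Same-numbered libraries share only a number by their labels. The correlation of their deviations from the group means ran from −0.0033 to 0.301 over 15 pairs of groups and passed 0.1 in 9, with 0.134 to 0.301 in the 6 pairs of lines at the same treatment and 0.459 in Eed fl/fl. Not every one of the 15 pairs passed 0.1, so the block stayed an alternative. The only Eed fl/fl pair did pass, so the fit of that line without a block left out a pairing. With the block the SE of Hoxb5 in Eed fl/fl cells was 0.56 against 0.98 without it, and no member was called. Of single members, 596 values kept side and direction, 44 lost the call, 12 gained it and 8 reversed or fell to 0, none of these 8 called. Leaving out 1 library moved the log2 OHT effect in RING1B WT from −0.39 to 0.88 for Hoxb9, 0 to 4.43 for Hoxb5 and −2.16 to 2.09 for Hoxb4, with the lowest value of each without RING1B WT +OHT replicate 2 (Hoxb9 was also below 0 without −OHT replicate 2), and in Eed fl/fl from −2.13 to 2.78 for Hoxb5 and −2.25 to 0.56 for Hoxb2, both lowest without +OHT replicate 2.

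For peaks, 428 values kept within their limit and 43 moved. With a score of 20 or more, promoter peaks were left at 1 member for RING1B in RING1B I53S, 0 for CBX7 in Parental and RING1B I53S, 0 and 2 for PCGF6 in Parental and RING1B I53S, 1 and 0 for RYBP in RING1B WT and RING1B I53S, 3 for EPOP in Parental, and 3 and 4 for JARID2 in Parental and RING1B I53S, all with OHT. With promoters of 1 kb the count was 1 for RING1B in RING1B I53S, for CBX7 in RING1B I53S and for PCGF6 in Parental cells, and with 500 bp of overlap it was 3 for PCGF6 in Parental cells. The cause of these moves was not tested. Low counts limited the RNA results, since 3 members did not pass the filter, and single lists without depth limited the peaks.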

Other observations

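One RYBP list, whose labels give no group, held 61 peaks over the genome (0.0581 Mb in all) and none in the Hoxb window. It was used in no comparison.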
